A study of Mus musculus with 18 samples.

Results

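The comparison described here set E10.5 mouse embryos carrying 2 HoxB alleles, Del(i9-13):Hoxb13hd, against wild type embryos, and the growth protocol speaks of littermates without tying any library to a litter. The libraries were chosen by the column names of the deposited count table, which gave 3 double mutant and 3 wild type libraries, 6 of the 18 libraries of the series. Bodies without the head were sequenced in every library. The double mutant carried the Del(i9-13) and the Hoxb13hd allele, and its label calls the genotype homozygous. Wild type embryos of the same stage were the controls, and both groups were sequenced from ribosome-depleted RNA. Homozygous Del(i9-13) and homozygous Hoxb13hd embryos of the same stage, with 3 libraries each, carried one of the alleles alone and were used to show where the double mutant stood apart. Del(i9-13) is taken from its name as removing DNA that lies from Hoxb9 to Hoxb13. No label explains the letters hd, and a level of Hoxb13 RNA says nothing of whether its protein works. Whether a replicate was a single embryo or a pool is not stated, so that p-values measure only how far these libraries lie apart, which may be technical.

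Hox genes encode homeodomain transcription factors that give the body axis its positional identity. Within a cluster they are switched on in order, and the genes of group 13 at the far end are switched on last, in the tail bud, where they are known to slow the growth of the axis. The protein CTCF can hold neighbouring stretches of a cluster apart, and the series title links such insulation of Hoxb13 to tail length.

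The libraries held 22572481, 25722951 and 23071699 counts in the double mutant and 21899426, 23740543 and 23573756 in wild type. Xist, the RNA of the inactive X chromosome, stood at 6.94, 526 and 607 CPM (reads of a gene scaled to library size) in the double mutant and at 0.952, 599.7 and 0.463 CPM in wild type, so that the sexes were not balanced between the groups. Heart muscle genes set a wild type library apart. Their summed level over 16 tested genes was 188, 148 and 274 CPM in the double mutant and 227, 461 and 1680 CPM in wild type. All 16 had a negative log2 change and none was called. The part of this library in the results was not tested beyond leaving it out. In whole bodies, fewer cells of a type and less RNA per cell cannot be told apart.

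Few genes were called between the double mutant and wild type in the fit of all 12 E10.5 libraries, and a gene not called may still differ. Of 17202 genes tested with edgeR's quasi-likelihood model, 69 (0.401%) were called at a Benjamini-Hochberg adjusted p of 0.05. They were 33 higher genes (0.192%) and 36 lower genes (0.209%), and the median log2 change over all genes tested was 0.001. An unadjusted p under 0.05 was found for 2156 genes (12.5%). Of the called genes, 15 rose and 12 fell by at least 1 on the log2 scale. The median log2 change was 0.93 among the higher and -0.63 among the lower genes. All 69 had groups of libraries that did not overlap, a pattern found with the double mutant above in 11.2% and below in 10.3% of all genes tested. DESeq2 called 326 genes, and the 3 double mutant and 3 wild type libraries fitted alone gave 117. Replicates with the same number deviated together in these 2 groups, though weakly, and in some other pairs of genotypes they did not. A replicate block gave 61 calls (0.355%) over the 12 E10.5 libraries. In a fit of the 6 libraries alone, which was not among the planned fits, it gave 614 (3.73%) and kept 66 of the 69. Leaving out wild type replicate 2 gave 14 calls and leaving out replicate 3, with its high heart genes, gave 30. The counts without 1 of the other libraries ran from 18 to 41.

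**Figure D1:**
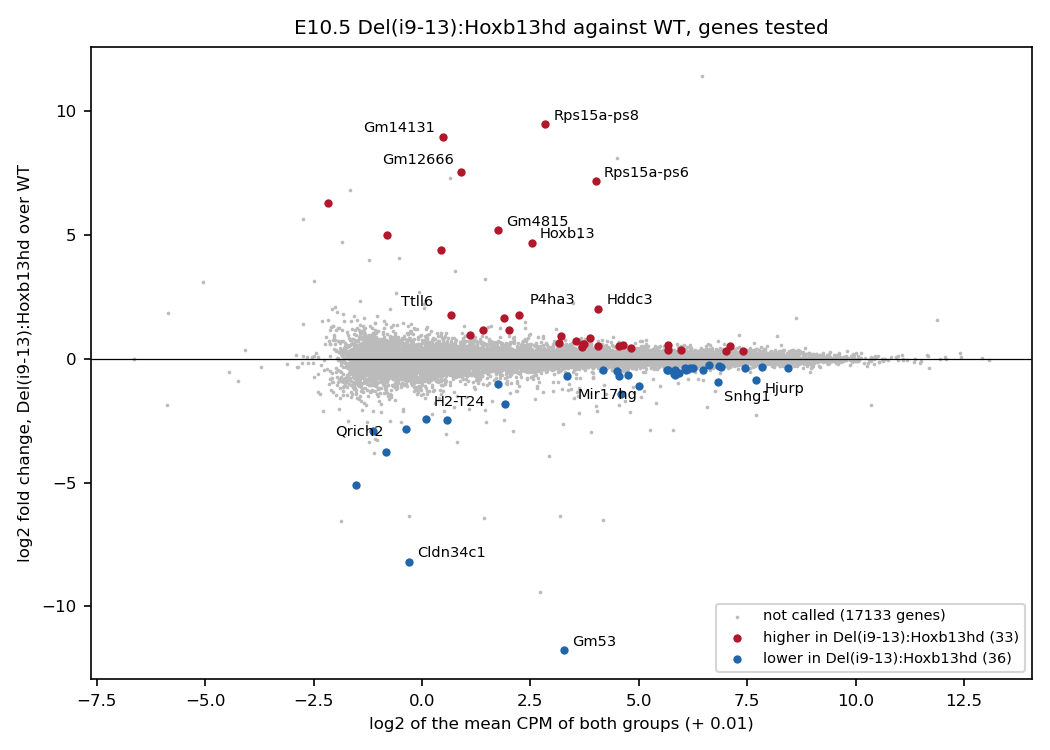
Each point is a gene of the E10.5 Del(i9-13):Hoxb13hd against WT comparison. The horizontal axis is the log2 of the mean CPM of both groups, the vertical axis the fitted log2 fold change, and red and blue points are the 33 called higher and 36 called lower genes. Most genes lie near 0, and Hoxb13, Gm53, Cldn34c1 and Rps15a pseudogenes are among the called genes far from it.

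Hoxb13 was among the genes that rose most. Hoxb13 (chr11:96194316-96197447, mm10), the most 5′ gene of the cluster, had 255, 307 and 228 counts in the double mutant, against 25, 3 and 1 counts in wild type. That was 11.1 ± 1.06 CPM in the double mutant and 0.434 ± 0.607 CPM in wild type (SD, n = 3 each). Every double mutant library was far above every wild type library, and 25 of the 29 wild type counts came from replicate 1. The log2 change was 4.69 (SE 0.62, adjusted p = 0.0106), and the ratio of summed counts was 26.5, with an exact 95% interval of 18.3 to 39.9 that covers counting error only. An exact two-sided permutation test gave p = 0.1, the smallest that 3 against 3 libraries can give. The adjusted p was 0.0666 with the 6 libraries fitted alone, 0.118 with the replicate block in that fit, 0.0524 with Xist as a covariate and 0.0696 with wild type replicate 2 left out. With wild type replicate 1 left out the log2 change was 6.95.

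The level of Hoxb13 in the double mutant lay beside that of the embryos with the deletion alone. Embryos with Del(i9-13) alone had 9.60 ± 3.29 CPM, and the double mutant did not differ from them past the threshold (log2 0.20, adjusted p = 0.865). In embryos with Hoxb13hd alone the level was 0.0510 ± 0.0529 CPM, and the double mutant was higher (adjusted p = 0.00318), with a ratio of summed counts of 227 and a counting interval of 77.5 to 1100. These comparisons share the double mutant libraries. Gm53, a noncoding RNA gene inside the interval (chr11:96251105-96264868), had 0 counts in all 3 double mutant libraries, against 521, 441 and 371 counts in wild type. It was at least 456-fold lower, taking 3 counts over the group as the floor (adjusted p = 0.000422). With Del(i9-13) alone it had 0 counts in every library too, and with Hoxb13hd alone 652, 1076 and 1041. Where the deletion removes this DNA, 0 counts are set by the genotype, and the test shows no change in regulation.

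No other HoxB gene passed the test. Their log2 changes ran from -0.50 for Hoxb3os to 0.33 for Hoxb7. Hoxb9 (chr11:96271457-96276595), on the other side of the interval, had 72.9, 70.2 and 66.6 CPM in the double mutant and 90.8, 99.5 and 82.7 CPM in wild type. Its double mutant libraries all lay below the wild type ones, and its log2 change of -0.38 had an adjusted p of 0.168. The fit of the 6 libraries with the replicate block, which called 3.73% of all genes tested in it, called Hoxb9 lower. Against Hoxb13hd alone, at 115 ± 17.0 CPM, Hoxb9 was lower (log2 -0.71, adjusted p = 0.00928). The other group 13 genes did not pass, with log2 changes of 0.04 for Hoxa13, 0.82 for Hoxc13 and 0.07 for Hoxd13. Hoxd4, a gene of the anterior trunk, was the only Hox gene outside HoxB called in the fit of all 12 libraries. It fell by 0.46 on the log2 scale (adjusted p = 0.0458), to 42.2 ± 3.56 CPM in the double mutant, against 58.0 ± 4.42 CPM in wild type. The call was lost with the replicate block over 12 libraries and in each of the 6 fits that left out a library. The fit of the 6 libraries with the block called Hoxd4 lower, and Hoxc6 and Hoxa7 higher.

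Ttll6 (chr11:96133786-96165451), which encodes a tubulin polyglutamylase of cilia and is the neighbour of Hoxb13, rose with it. Its level was 2.17, 2.61 and 2.52 CPM in the double mutant and 0.816, 0.466 and 0.842 CPM in wild type. All double mutant libraries were above all wild type libraries, with a log2 change of 1.78 (SE 0.27, adjusted p = 0.0137). The call was lost with Xist as a covariate and without double mutant replicate 3, wild type replicate 1 or wild type replicate 2. Embryos with Del(i9-13) alone were at 2.37 ± 0.171 CPM and those with Hoxb13hd alone at 1.19 ± 0.340 CPM, and the double mutant did not differ past the threshold from either (adjusted p = 0.954 and 0.0707). The 250 bases upstream of its start (RefSeq, GRCm38.p6, chr11:96133536-96133785, plus strand) are shown because it is the called gene nearest to Hoxb13. Capitals mark TATAAA on both strands, where the matches overlap.
Ttll6: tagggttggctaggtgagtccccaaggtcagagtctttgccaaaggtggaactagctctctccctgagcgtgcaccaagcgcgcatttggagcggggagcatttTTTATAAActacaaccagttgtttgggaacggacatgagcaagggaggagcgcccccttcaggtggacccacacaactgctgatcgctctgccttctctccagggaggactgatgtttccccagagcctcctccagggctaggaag

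**Figure D2:**
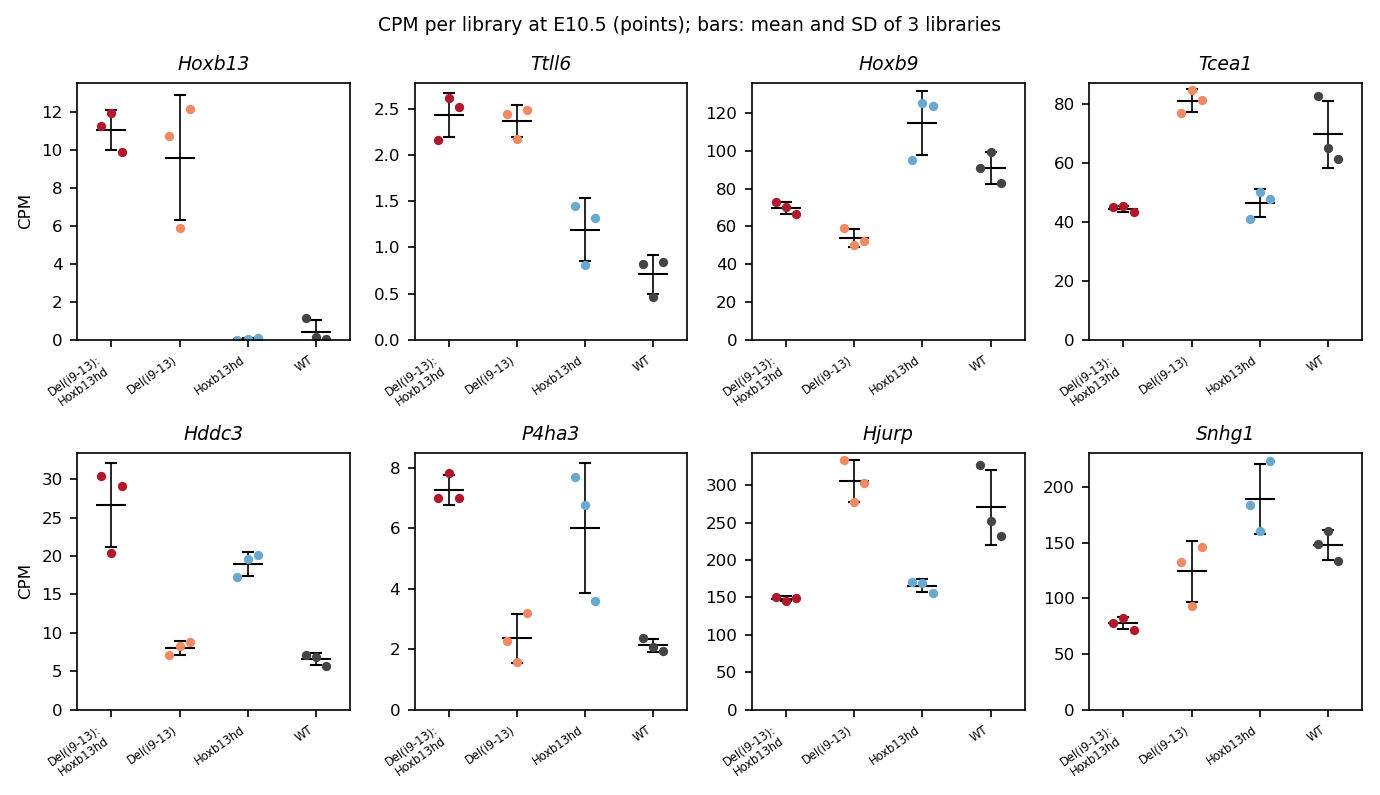
CPM of 8 genes in each E10.5 library, from left to right Del(i9-13):Hoxb13hd, Del(i9-13), Hoxb13hd and WT. Points are libraries and bars the mean and SD of 3. Hoxb13 and Ttll6 are high in the double mutant and with Del(i9-13) alone, Hddc3 and P4ha3 in the double mutant and with Hoxb13hd alone, and Snhg1 is lowest in the double mutant, at 77.6 CPM.

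Chromosomes 7 and 11 held more of the calls than of the genes tested. Chromosome 7 held 16 of the 69 calls, 1.22% of its 1309 tested genes, and chromosome 11 held 13, or 0.995% of its 1307. The other chromosomes together had 40 calls among 14585 tested genes (0.274%). Of 281 windows of 10 Mb, 233 held no called gene and 5 held at least 3. These 5 lay at 80 to 90, 90 to 100 and 100 to 110 Mb of chromosome 7, and at 90 to 100 and 110 to 120 Mb of chromosome 11. The window at 90 to 100 Mb of chromosome 11 held 5 of its 13 calls. All of them lay within 1 Mb of Hoxb13, at the altered locus, with Hoxb13, Gm53 and Ttll6 among them. Chromosome 7 held 7.61% of all genes tested. Its share of the calls was 23.2%, and 19.5% without double mutant replicate 2. Leaving out any of the other 5 libraries, double mutant replicates 1 and 3 or a wild type replicate, put it between 5.0% and 10%, around its share of the genes tested, and it was 12.7% in the 6-library fit with the replicate block. Chromosome 11 held 7.6% of the genes tested and 18.8% of the calls. Its share of the calls was 24.4% to 38.9% with a library left out, highest without double mutant replicate 1, against 12% with DESeq2 and 10.7% in the 6-library fit with the replicate block.

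**Figure D3:**
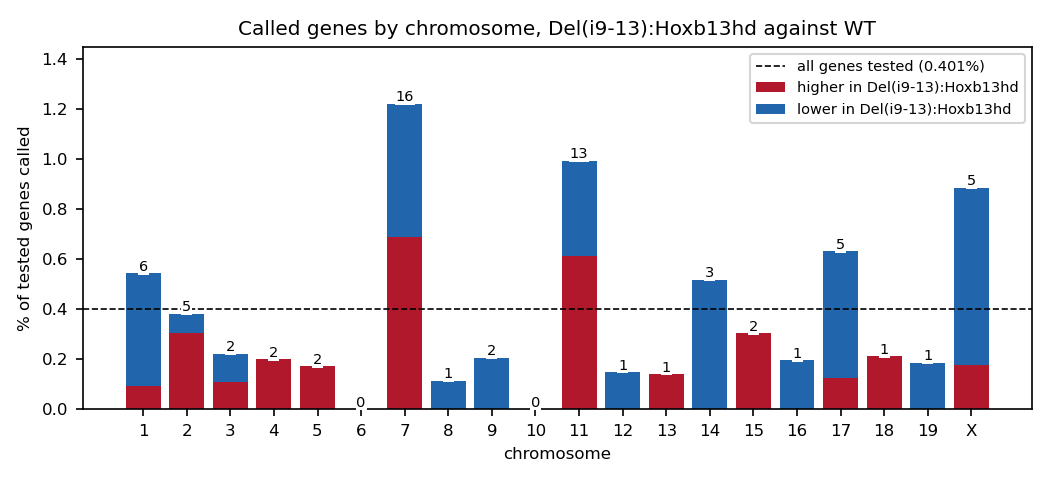
Share of tested genes called in Del(i9-13):Hoxb13hd against WT, by chromosome, with the number of calls above each bar. Red is the share called higher and blue the share called lower in the double mutant, and the dashed line is the 0.401% over all genes tested. Chromosomes 7 and 11 have the tallest bars, with 16 and 13 calls.

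Hddc3 had the clearest change on chromosome 7. Hddc3 (chr7:80343104-80350547) encodes a hydrolase known as an NADPH phosphatase. It had 30.4, 20.4 and 29.1 CPM in the double mutant, against 7.12, 6.82 and 5.64 CPM in wild type, with a log2 change of 2.03 (SE 0.16, adjusted p = 4.34e-05). The lowest double mutant library was still far above the highest wild type one, and the call held in all 18 alternatives. Its neighbours Rccd1, a gene with RCC-type repeats, and Ngrn, known for the assembly of mitochondrial ribosomes, rose by less. Rccd1 had 15.6 ± 1.69 CPM in the double mutant and 10.4 ± 0.168 CPM in wild type (log2 0.59, adjusted p = 0.0167). Ngrn had 29.7 ± 2.54 CPM in the double mutant and 20.04 ± 1.90 CPM in wild type (log2 0.57, adjusted p = 0.0389). Both of these calls were lost in 5 of 6 fits that left out a library.

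A second stretch of chromosome 7 held P4ha3, Lrrc51 and Map6. P4ha3 (chr7:100285520-100319699), the catalytic subunit of a prolyl hydroxylase that modifies collagen, had 6.99, 7.84 and 6.99 CPM in the double mutant and 2.36, 2.08 and 1.94 CPM in wild type. The groups lay far apart, with a log2 change of 1.78 (SE 0.28, adjusted p = 0.0155). Lrrc51, which encodes a protein with leucine-rich repeats, had 5.57 ± 0.395 CPM in the double mutant and 1.78 ± 0.236 CPM in wild type (log2 1.65, adjusted p = 0.0168). Map6, a protein that stabilises microtubules, had 18.6 ± 0.616 CPM in the double mutant and 10.54 ± 0.813 CPM in wild type (log2 0.82, adjusted p = 0.0137). P4ha3 and Lrrc51 missed the threshold in each of the 6 fits that left out a library and Map6 in 4 of them. Il18bp, a secreted decoy receptor for an interleukin, and Alg8, a glucosyltransferase of protein glycosylation, fell in the same region, by 1.02 and 0.51 on the log2 scale (adjusted p = 0.0170 and 0.0291), with calls lost in 6 and 5 of those fits.

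Across the 4 genotypes, Hddc3, P4ha3, Lrrc51 and Map6 had means in the double mutant that lay nearer to those with Hoxb13hd alone than to those with Del(i9-13) alone. Hddc3 averaged 26.6 CPM in the double mutant, 8.01 with Del(i9-13) alone, 18.996 with Hoxb13hd alone and 6.53 in wild type. P4ha3 averaged 7.27 CPM in the double mutant, 2.36 with Del(i9-13) alone, 6.02 with Hoxb13hd alone and 2.12 in wild type. Map6 averaged 18.6 CPM in the double mutant, 10.7 with Del(i9-13) alone, 14.6 with Hoxb13hd alone and 10.54 in wild type. The double mutant differed from Del(i9-13) alone for Hddc3 (log2 1.73, adjusted p = 0.000101), P4ha3 (1.62, adjusted p = 0.0133) and Map6 (0.79, adjusted p = 0.00713). It did not differ past the threshold from Hoxb13hd alone for these genes (adjusted p = 0.127, 0.685 and 0.189). Lrrc51 averaged 5.57 CPM in the double mutant, 2.87 with Del(i9-13) alone and 6.20 with Hoxb13hd alone, and passed in neither comparison. The upstream 250 bases of Hddc3 (chr7:80342887-80343136, plus strand) and P4ha3 (chr7:100285270-100285519, plus strand) are shown because they rose most among the called protein-coding genes of the chromosome. Capitals mark GGGCGG, found 5 times in P4ha3 with 3 overlapping matches and not in Hddc3.
Hddc3: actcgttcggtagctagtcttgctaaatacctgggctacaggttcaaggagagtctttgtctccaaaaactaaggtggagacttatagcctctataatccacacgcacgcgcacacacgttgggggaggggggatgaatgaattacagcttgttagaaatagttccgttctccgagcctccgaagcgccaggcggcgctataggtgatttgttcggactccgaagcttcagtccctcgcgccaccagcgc
P4ha3: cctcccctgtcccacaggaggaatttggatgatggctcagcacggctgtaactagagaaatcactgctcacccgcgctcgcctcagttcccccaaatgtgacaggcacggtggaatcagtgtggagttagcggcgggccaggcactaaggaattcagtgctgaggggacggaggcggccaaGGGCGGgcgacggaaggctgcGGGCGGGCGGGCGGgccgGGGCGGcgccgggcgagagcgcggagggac

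Hjurp and Tcea1, both on chromosome 1, were low in the double mutant and with Hoxb13hd alone. Hjurp (chr1:88262471-88277633), the chaperone that places the centromeric histone, had 150.3, 144.5 and 149.6 CPM in the double mutant, against 327, 251 and 232 CPM in wild type. Its highest double mutant library was well under its lowest wild type library, with a log2 change of -0.87 (SE 0.11, adjusted p = 0.00350), and no left-out library ended the call. Hjurp was at 305 ± 28.0 CPM with Del(i9-13) alone and at 165 ± 8.63 CPM with Hoxb13hd alone. The double mutant was lower than Del(i9-13) alone (log2 -1.04, adjusted p = 0.000371) and did not differ past the threshold from Hoxb13hd alone (log2 -0.16, adjusted p = 0.543). Tcea1, an elongation factor of RNA polymerase, fell to 44.5 ± 1.03 CPM in the double mutant, against 69.6 ± 11.4 CPM in wild type (log2 -0.65, adjusted p = 0.0191). It was at 81.0 ± 3.85 CPM with Del(i9-13) alone and 46.3 ± 4.67 CPM with Hoxb13hd alone, and its call was lost in 5 of 6 fits that left out a library. The upstream 250 bases of Hjurp (chr1:88277580-88277829, minus strand) are shown because it was the called gene of the list of mitosis genes described further on. Capitals mark CCAAT on the opposite strand.
Hjurp: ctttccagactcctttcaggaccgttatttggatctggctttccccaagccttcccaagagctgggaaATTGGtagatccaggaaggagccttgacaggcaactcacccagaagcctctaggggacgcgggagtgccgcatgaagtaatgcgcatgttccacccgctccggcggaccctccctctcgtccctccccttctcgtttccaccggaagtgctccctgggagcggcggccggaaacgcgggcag

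H2-T24, a class I gene of the major histocompatibility complex, had 0.329 ± 0.151 CPM in the double mutant and 1.77 ± 0.688 CPM in wild type (log2 -2.43, adjusted p = 0.0380). The antisense gene A930015D03Rik, which overlaps it, fell by 2.47 on the log2 scale (adjusted p = 0.00453), and since the strand setting of the counting is not given, reads of the pair may not be told apart. Both were low with Hoxb13hd alone too, at 0.219 and 0.342 CPM, and high with Del(i9-13) alone, at 2.36 and 3.40 CPM. Of 18 tested genes of the complex, H2-T24 was the only called member, and the median was 0.16.

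Several other named genes fell. Eef2k, the kinase that restrains translation elongation, had 20.6 ± 4.13 CPM in the double mutant and 43.8 ± 3.44 CPM in wild type (log2 -1.09, adjusted p = 0.0356). Qrich2, a gene known from sperm flagella, had 0.183 ± 0.0681 CPM in the double mutant and 1.33 ± 0.502 CPM in wild type (log2 -2.83, adjusted p = 0.0102). Both were also low in each single mutant, with means of 19.7 and 23.9 CPM for Eef2k and 0.169 and 0.340 CPM for Qrich2 with Del(i9-13) alone and Hoxb13hd alone. Cldn34c1, a claudin gene on the X chromosome, had 0 counts in the double mutant and 111 over the wild type libraries, at least 38.0-fold lower (adjusted p = 0.0472). Mns1, a structural gene of cilia, fell by 0.56 on the log2 scale (adjusted p = 0.0413). Of these calls, leaving out a library ended that of Qrich2 in 4 of 6 fits, Eef2k in 5, and H2-T24, Cldn34c1 and Mns1 in all 6.

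Several more named genes rose. Rspo4, a secreted enhancer of Wnt signals, had 10.9 ± 0.972 CPM in the double mutant and 7.02 ± 0.219 CPM in wild type (log2 0.64, adjusted p = 0.0472). Rwdd3, an enhancer of sumoylation, had 3.68 ± 0.882 CPM in the double mutant and 1.63 ± 0.255 CPM in wild type (log2 1.17, adjusted p = 0.0472). On distal chromosome 11, Slc26a11, an anion transporter, Ttyh2, a member of the tweety family, and Slc9a3r1, a scaffold for membrane transporters, also rose. Their log2 changes were 1.16, 0.72 and 0.55 (adjusted p = 0.0394, 0.0360 and 0.0191). In both single mutants their means lay above wild type too. Slc26a11 averaged 5.502 CPM in the double mutant, 4.996 with Del(i9-13) alone, 5.55 with Hoxb13hd alone and 2.46 in wild type. In that order, Ttyh2 averaged 14.5, 13.1, 11.7 and 8.79 CPM and Slc9a3r1 60.9, 57.5, 69.05 and 41.6 CPM. For these genes the double mutant did not differ past the threshold from either single mutant. The calls of Rspo4, Rwdd3, Slc26a11, Ttyh2 and Slc9a3r1 were each lost in 4 to 6 of the 6 fits that left out a library.

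Small nucleolar RNA host genes carry the guide RNAs of ribosomal RNA modification in their introns. Of 19 tested host genes, Snhg1 and Snhg6 fell, none rose, and 16 had a negative log2 change. Their median log2 change was -0.19, against 0.001 over all genes tested. In 8 of the 19 the double mutant libraries all lay below the wild type ones, against 10.3% of all genes tested. Summed over the list, the level was 560, 564 and 495 CPM in the double mutant and 680, 706 and 633 CPM in wild type, so that the groups did not overlap. The sums were also above the double mutant in the other mutants, at 692, 678 and 715 CPM with Del(i9-13) alone and 685, 739 and 807 CPM with Hoxb13hd alone.

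Snhg1 (chr19:8723475-8726443) had 78.2, 82.7 and 71.8 CPM in the double mutant, against 149, 161 and 134 CPM in wild type (log2 -0.93, SE 0.16, adjusted p = 0.0291). Its double mutant libraries lay below those of every other genotype, at 124 ± 27.4 CPM with Del(i9-13) alone and 189 ± 31.7 CPM with Hoxb13hd alone. The double mutant was lower than Hoxb13hd alone (log2 -1.29, adjusted p = 0.00327) and did not pass against Del(i9-13) alone (log2 -0.68, adjusted p = 0.0666). Snhg6 (chr1:9941959-9944118) had 18.4, 16.6 and 17.5 CPM in the double mutant and 31.2, 28.8 and 26.2 CPM in wild type (log2 -0.71, SE 0.10, adjusted p = 0.009996). It passed against Del(i9-13) alone (log2 -0.92, adjusted p = 0.000454) and missed against Hoxb13hd alone (log2 -0.36, adjusted p = 0.110). The call of Snhg6 was lost in 3 of 6 fits that left out a library, and that of Snhg1 in all 6 and with the replicate block over 12 libraries. With that block in the 6 libraries alone, Snhg4, Snhg5 and Snhg14 were called lower too, in a fit that called 3.73% of all genes tested.

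Mir17hg, the host gene of the miR-17-92 cluster, was lower in the double mutant than in every other genotype. The cluster is known in the mouse for its part in growth and in the patterning of the axial skeleton. Mir17hg (chr14:115042879-115046727) had 47.4, 41.9 and 43.8 CPM in the double mutant, against 67.4, 70.1 and 65.4 CPM in wild type. All 3 double mutant libraries were below all 9 others, with means of 44.3 CPM in the double mutant, 69.4 with Del(i9-13) alone, 68.6 with Hoxb13hd alone and 67.6 in wild type. The log2 change was -0.61 against wild type (SE 0.09, adjusted p = 0.0137), -0.65 against Del(i9-13) alone (adjusted p = 0.00421) and -0.63 against Hoxb13hd alone (adjusted p = 0.00912). These 3 comparisons share the double mutant libraries, and 5 of 6 left-out libraries ended the call against wild type. Of the mature miRNAs of the cluster, which were not measured, 6 are shown in RNA letters from RefSeq (GRCm38.p6, chromosome 14, plus strand), since they are cut from this transcript. The others, among them miR-17-3p, are not shown. Capitals mark the seed, bases 2 to 8 from the 5′ end. miR-17-5p and miR-20a-5p share a seed, as do miR-19a-3p and miR-19b-3p.
miR-17-5p: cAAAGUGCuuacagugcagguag
miR-20a-5p: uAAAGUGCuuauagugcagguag
miR-18a-5p: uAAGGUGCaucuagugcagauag
miR-19a-3p: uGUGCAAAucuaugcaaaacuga
miR-19b-3p: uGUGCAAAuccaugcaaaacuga
miR-92a-3p: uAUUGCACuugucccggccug

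The double mutant was set against each single mutant in the same fit. Against Del(i9-13) alone 156 genes were called (0.907%), 94 higher (0.546%) and 62 lower (0.36%), and against Hoxb13hd alone 165 (0.959%), 116 higher (0.674%) and 49 lower (0.285%). An interaction term asked whether the double mutant departed from the sum of the single mutant effects, and 90 genes passed it (0.523%), 47 with a positive (0.273%) and 43 with a negative term (0.25%). Without Del(i9-13) replicate 1 the first count was 1453, and without Hoxb13hd replicate 1 the second was 412. The single genes described next were named by the smallest p in these comparisons.

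Some genes had a level like wild type in the double mutant and differed in both single mutants. Pop4, a subunit of ribonuclease P, had 32.3, 32.4 and 26.8 CPM in the double mutant and 30.9, 30.6 and 28.2 CPM in wild type, and the groups overlapped (log2 0.03, adjusted p = 0.935). It stood at 88.9 ± 12.2 CPM with Del(i9-13) alone and 60.1 ± 4.21 CPM with Hoxb13hd alone. The interaction was -2.55 on the log2 scale (adjusted p = 1.28e-06). H4f16, a histone gene, had 242 ± 23.5 CPM in the double mutant, 635 ± 147 with Del(i9-13) alone, 474 ± 63.5 with Hoxb13hd alone and 219 ± 14.5 CPM in wild type (interaction -2.50, adjusted p = 6.85e-05). Histone genes are close copies of each other, so that their counts are uncertain.

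Eif3j2, a translation initiation subunit with a near-identical paralog, had 0.0984 CPM in the double mutant, 6.61 with Del(i9-13) alone, 8.45 with Hoxb13hd alone and 0.114 CPM in wild type (interaction -12.12, adjusted p = 1.05e-07). Bcl2l12, of the Bcl family, had 17.2 ± 1.10 CPM in the double mutant, 30.4 ± 1.94 with Del(i9-13) alone, 22.6 ± 2.12 with Hoxb13hd alone and 15.8 ± 0.426 CPM in wild type (interaction -1.33, adjusted p = 0.000139). Hfm1, a helicase of meiotic recombination, went the other way. Its level was 2.77 ± 1.23 CPM in the double mutant, 0.223 ± 0.0768 with Del(i9-13) alone, 1.74 ± 0.295 with Hoxb13hd alone and 3.74 ± 0.820 CPM in wild type (interaction 4.68, adjusted p = 0.000367).

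Arrdc3, an arrestin-domain gene, was lower in the double mutant, at 84.7 ± 1.65 CPM, than with Del(i9-13) alone, at 164 ± 5.81 CPM (log2 -0.95, adjusted p = 0.000151), and did not pass against wild type, at 108 ± 14.3 CPM. Clmp, a cell adhesion gene, was higher in the double mutant, at 79.8 ± 2.51 CPM, than with Hoxb13hd alone, at 50.9 ± 2.12 CPM (log2 0.65, adjusted p = 0.00124), and did not pass against wild type, at 73.0 ± 7.33 CPM.

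**Figure D4:**
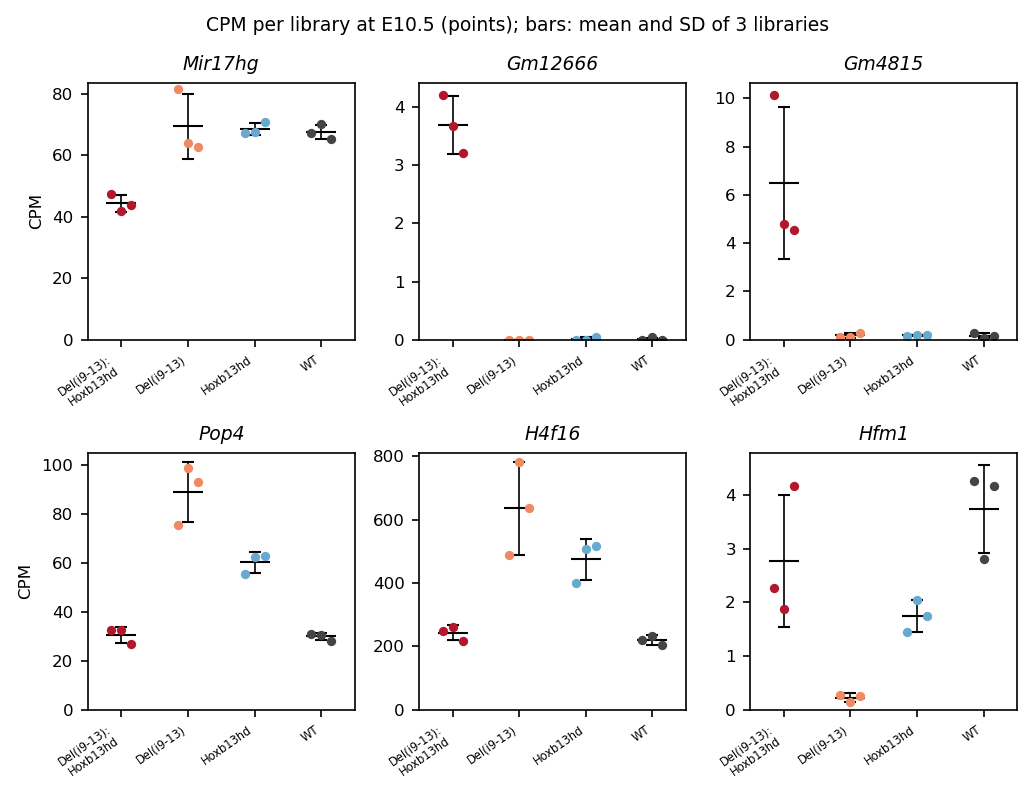
CPM of 6 genes in each E10.5 library, from left to right Del(i9-13):Hoxb13hd, Del(i9-13), Hoxb13hd and WT, with the mean and SD of 3 libraries. Mir17hg is lowest and Gm12666 and Gm4815 are highest in the double mutant. Pop4 and H4f16 stand in the double mutant near wild type and under both single mutants, and Hfm1 is lowest with Del(i9-13) alone, at 0.223 CPM.

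A pair of genes without names of their own, chosen after their values were seen, had counts almost only in the double mutant. Gm12666, on chromosome 4, had 95, 94 and 74 counts in the double mutant, against 0, 1 and 0 in wild type, and its means were 0 with Del(i9-13) alone and 0.0176 CPM with Hoxb13hd alone (ratio of counts over wild type 256, counting interval 45.6 to 10200, adjusted p = 0.000162). Gm4815, a processed pseudogene on chromosome 13, had 229, 123 and 105 counts in the double mutant and 6, 2 and 4 in wild type (log2 5.18, adjusted p = 0.000115). In the authors' FPKM table its mean was 0.0821 in the double mutant and 0.118 in wild type, so that the rise of Gm4815 is in the counts alone, and the cause was not tested. Pseudogenes made up 10 of the 69 calls, 2.08% of 481 tested, against 0.342% of 14346 protein-coding genes and 0.847% of 1180 long noncoding genes. Of the 10 long noncoding calls, 9 were lower in the double mutant.

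The ribosomal pseudogenes Rps15a-ps5, Rps15a-ps6 and Rps15a-ps8, also chosen after their values were seen, had few counts in wild type alone. Rps15a-ps6, on chromosome 11, had 32.9, 35.7 and 27.1 CPM in the double mutant and 0.227, 0.297 and 0.126 CPM in wild type, a log2 change of 7.17 (adjusted p = 1.41e-05). It stood at 37.7 CPM with Del(i9-13) alone and 28.3 CPM with Hoxb13hd alone. Rps15a-ps8 had 14.2 CPM in the double mutant and 0.0151 CPM in wild type, and Rps15a-ps5 had 2.56 and 0.115 CPM. In the authors' FPKM table, Rps15a-ps8 differed in the same way, at 27.1, 29.0 and 25.1 FPKM in the double mutant and 0.0860, 0 and 0 FPKM in wild type. Rps15a-ps6 was at 0.574, 0.589 and 0.409 FPKM in the double mutant and 0.169, 0.386 and 0.154 FPKM in wild type there. Rps15a-ps5 was at 0.410, 0.0736 and 0.0819 FPKM in the double mutant and 0.169, 0.155 and 0.0772 FPKM in wild type, so that its groups overlapped. Neither Rps15a-ps5 nor Rps15a-ps6 was called by limma on unfiltered FPKM. These copies share sequence, so that their reads may belong to another copy.

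Signalling genes of the growing tail did not pass the test one by one. Of 18 tested Wnt targets and inhibitors, none was called, all 18 had a positive log2 change, and the median was 0.24, against 0.001 over all genes. Axin2, a target and inhibitor of the pathway, had 86.5, 86.5 and 84.0 CPM in the double mutant and 75.4, 77.7 and 75.5 CPM in wild type (log2 0.17, adjusted p = 0.317). Tcf7, a Wnt-dependent transcription factor, had 35.4 CPM in the double mutant and 28.2 CPM in wild type (log2 0.33, adjusted p = 0.362). The double mutant libraries were all above wild type in 7 of the 18, against 11.2% of all genes tested. The sum over the list was 435, 445 and 438 CPM in the double mutant and 386, 406 and 372 CPM in wild type, and it was 330 to 398 CPM with Del(i9-13) alone and 488 to 534 CPM with Hoxb13hd alone. In the 6-library fit with the replicate block Lef1 was called higher, 1 of 18 genes, against 3.73% of all genes tested in that fit.

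The 20 Fgf ligands and response genes gave 0 calls, 15 positive log2 changes and a median of 0.18. Etv5, which Fgf signals induce, had 47.3 CPM in the double mutant and 38.9 CPM in wild type (log2 0.28, adjusted p = 0.257). Spred2, an inhibitor of the pathway, had 30.9 CPM in the double mutant and 22.3 CPM in wild type (log2 0.47, adjusted p = 0.288). The 6-library blocked fit called Etv5, Fgfr1 and Spred2 higher, 3 of 20 genes, against 3.73% of all genes tested in that fit. Among 24 tested tail bud and neuromesodermal progenitor genes none was called and the median log2 change was 0.09. Grhl3, an epithelial transcription factor on that list, had a log2 change of 0.58 (adjusted p = 0.207), and Lin28b, which delays developmental timing, one of -0.20 (adjusted p = 0.315). Presomitic mesoderm and segmentation clock genes gave 0 calls of 20 and a median of 0.08. Hox genes of groups 9 to 12 outside HoxB gave 0 calls of 15 and a median of 0.18, with Hoxd9 at 19.2 CPM in the double mutant and 14.8 CPM in wild type (log2 0.38, adjusted p = 0.139).

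Limb bud genes gave 0 calls of 18, with 16 positive log2 changes and a median of 0.18. Lmx1b, which sets the dorsal side of the limb, had 33.0, 30.2 and 34.6 CPM in the double mutant and 23.8, 20.8 and 27.6 CPM in wild type, without overlap (log2 0.44, adjusted p = 0.262). It was called in the 6-library blocked fit, which called 3.73% of all genes tested in it. Of 20 hindgut and surface epithelium genes, 0 were called and the median was 0.17. The keratin gene Krt15 had 9.15, 6.95 and 8.64 CPM in the double mutant and 3.63, 5.38 and 4.25 CPM in wild type, also without overlap (log2 0.90, adjusted p = 0.173). Krt15, Krt5 and Cdh1 were called higher in the blocked fit of 6 libraries.

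Collagens and the enzymes that modify them gave 1 call of 23, P4ha3, with 20 positive log2 changes and a median of 0.19. Col18a1, a basement membrane collagen, had 416 ± 41.6 CPM in the double mutant and 323 ± 28.3 CPM in wild type (log2 0.37, adjusted p = 0.242). The blocked fit of 6 libraries called Col18a1, Col5a1, Col4a1 and Col4a2 higher as well. With P4ha3 that was 5 of 23 genes, against 3.73% of all genes tested in that fit.

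Head and brain genes served as a check on the dissection. Of 18 listed, 7 were tested and 11 had too few counts, at most 14 in any library, with Otx2, Six3 and Six6 at 0 in both groups. All 7 tested genes had a positive log2 change, with a median of 0.34, and their sum was 98.3, 101 and 106 CPM in the double mutant and 89.7, 64.6 and 78.2 CPM in wild type. Lhx2, a LIM homeodomain gene of brain and limb, rose to 26.5, 27.8 and 28.1 CPM in the double mutant, against 19.7, 16.5 and 20.8 CPM in wild type (log2 0.53, adjusted p = 0.0443). With Del(i9-13) alone it was at 26.7 ± 1.76 CPM and with Hoxb13hd alone at 19.3 ± 1.83 CPM. Its call was lost in each of the 6 fits that left out a library. Emx2, a homeodomain gene of brain and kidney, had 8.85 ± 1.24 CPM in the double mutant and 4.98 ± 0.917 CPM in wild type (log2 0.83, adjusted p = 0.0916).

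Of 22 tested genes of mitosis and the centromere, 1 was called, Hjurp, and 17 had a negative log2 change, with a median of -0.10. The sum over the list was 5590, 5490 and 5680 CPM in the double mutant and 6570, 6240 and 6190 CPM in wild type. Top2a, the topoisomerase of dividing cells, had 1276.2, 1269.8 and 1272.5 CPM in the double mutant and 1579.2, 1429.8 and 1453 CPM in wild type, without overlap (log2 -0.22, adjusted p = 0.178). In 8 of the 22 the double mutant libraries were all below wild type, against 10.3% of all genes tested. The blocked fit of 6 libraries called Top2a, Cenpe, Cenpf and Mki67 lower beside Hjurp, and Plk1 higher. That fit called 3.73% of all genes tested in it. The 20 DNA replication genes gave 0 calls and a median of 0, and the 24 sterol synthesis genes 0 calls and a median of 0.01. In the blocked fit of 6 libraries the polymerase genes Pola1 and Pole were called lower, and Srebf2 and Nsdhl were among the sterol genes called higher.

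Markers of the other tissues in the body showed few steps. Neurons gave 0 calls of 20 and a median of 0.08, with sums of 659, 664 and 639 CPM in the double mutant and 666, 433 and 706 CPM in wild type. Liver bud genes gave 0 calls of 16, with sums of 400, 452 and 368 CPM in the double mutant and 720, 345 and 267 CPM in wild type, so that the groups overlapped. Macrophage genes gave 0 calls of 14 and a median of 0.32, and their sums of 49.5, 18.2 and 29.5 CPM in the double mutant overlapped 31.9, 17.5 and 22.1 CPM in wild type. Translation factors gave 1 call of 20, Eef2k, and a median of 0.03. Lists of somite derivatives, spinal cord, neural crest, notochord, nephric tissue, endothelium, red blood cells, retinoic acid, hypoxia, p53 targets, replication-dependent histones, mitochondrial RNAs, clock genes and meiotic recombination gave 0 calls each in the fit of all 12 libraries. The 6-library fit with the replicate block called 3.73% of all genes tested, and 1 call in 15 to 24 genes is near that share. Among these lists it called 1 gene higher in each of nephric tissue, retinoic acid, p53 targets and histones. It called 1 gene lower in each of endothelium, hypoxia and clock genes, and 2 lower in red blood cells. Their medians ran from -0.44 for 9 tested meiotic genes to 0.14 for 18 spinal cord genes.

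**Figure D5:**
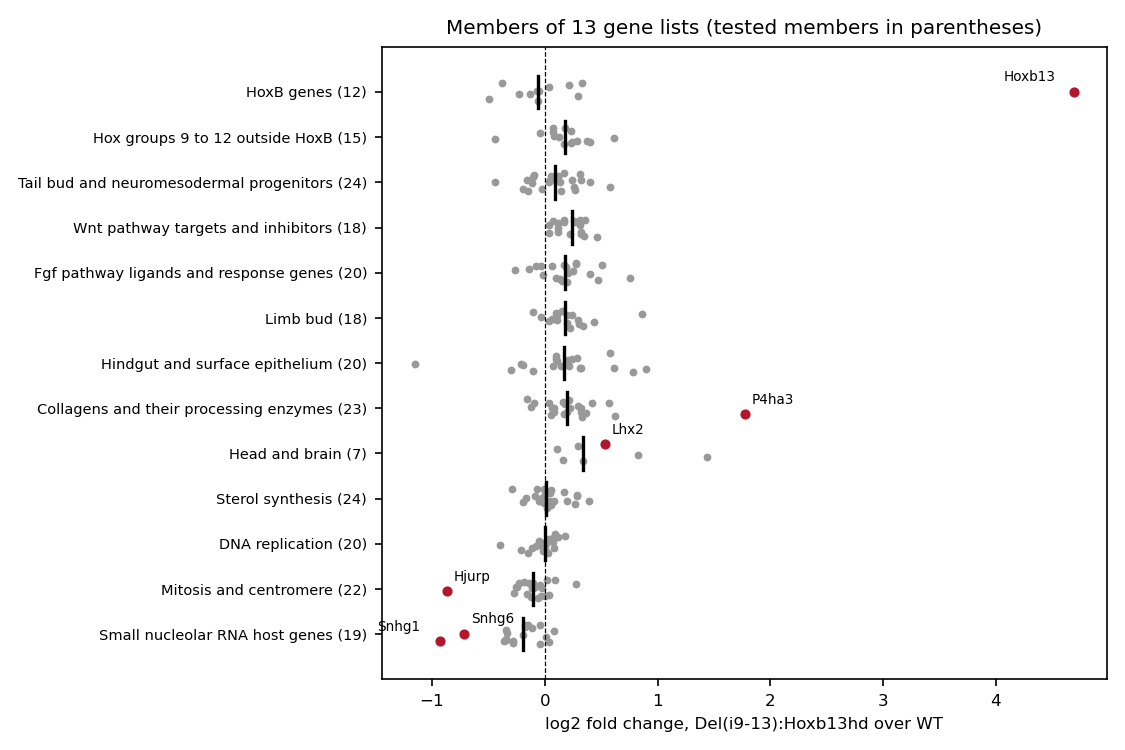
Log2 fold change, Del(i9-13):Hoxb13hd over WT, of the tested members of 13 gene lists. Each point is a gene, red where called and grey where not, and the black bar is the median of the list. The 18 Wnt genes lie right of 0, and 16 of the 19 small nucleolar RNA host genes lie left of it.

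Promoters of the called genes were searched for short motifs on both strands in the 250 bases before each RefSeq start. In the table used, 41 called genes had 49 promoters. CCAAT was found in 32.65% of them, against 35.06% of 15289 promoters of tested genes, and GGGCGG in 51.02%, against 55.49%. TATAAA was found in 5 promoters, those of Hoxd4, Rnf169, Slc4a7, Snhg1 and Ttll6, which is 10.2%, against 6.85%. CCAATAAA and CTCGTAAA, letters known from binding sites of posterior HOX proteins, were in none of the 49, against 0.71% and 0.08% of all promoters. A match is a description of these letters alone.

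The precision was limited by the spread between libraries. Of the 69 called genes, 13 kept their call in all 6 fits that left out a library. Hddc3 and Hjurp were among them, and so were Gm53 of the interval, Gm12666, A930015D03Rik and the pseudogenes Gm14131, Gm4815, Gm6368, Rps15a-ps5, Rps15a-ps6 and Rps15a-ps8. Hoxb13 was not. Another 36 lost it in every one of those fits.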

How the data were processed

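Counts per gene for 55141 genes were deposited by the authors for 18 libraries in 6 groups of 3, and 55138 genes had FPKM values that the authors made in a second table. The tools cutadapt 1.18, STAR 2.7.10a and Cufflinks 2.2.1 and the build mm10 are named, per the submitters' processing notes. The name of the deposited count table gives HTSeq as the counter. Its version, strand setting and annotation are not given here by any label. Gene places were those of the authors' FPKM table. Gene types came from GENCODE M21, in which 54887 of the IDs were found, 51385 with the same coordinates. All columns were matched to a sample (0 were not), and the 6 E9.5 libraries entered no fit.

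The 12 E10.5 libraries were fitted together with edgeR 4.0.16 (R 4.3.3) by quasi-likelihood, with filterByExpr (10 counts, 15 in total), TMM scaling and Benjamini-Hochberg adjustment at 0.05 over 17202 genes. All contrasts and the interaction came from this fit. DESeq2 1.42.0 and limma 3.58.1 on log2(FPKM + 0.1) and log2(FPKM + 1) were alternatives, beside other scaling and filters, an Xist covariate, left-out libraries and a replicate block. Double mutant and wild type libraries of the same number deviated together (correlations of 0.137, 0.169 and 0.171, all above 0.1), which comes from the data, as no label ties a replicate number to a litter. In some other pairs of genotypes they did not. The correlation was -0.316 for replicate 1 of Hoxb13hd and wild type, and -0.254 for replicate 1 of Hoxb13hd and the double mutant. The highest, 0.3, joined double mutant replicate 3 and Hoxb13hd replicate 1, so that the replicate number is not known to mark a shared source. Intervals are exact at 95% and, like the floor of 3 counts, cover counting error only. CPM levels are not per length and were not compared between genes. The edgeR contrast of double mutant against wild type was tested on simulated counts without replicate, sex or outlying-library effects. The other contrasts and fits were not tested in this way.

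The comparison and the 36 gene lists were chosen with earlier results of these data known. Named genes were HoxB and group 13 genes, genes of the deleted interval, up to 15 called genes each way by log2 change with a name of their own, at least 1 CPM and no overlap between groups, called genes near Hoxb13 or on a list, up to 5 genes with the smallest adjusted p in the other contrasts, and up to 2 members of a list with the smallest p. Other names, among them the Gm, Rik and pseudogene names, the genes named from the blocked fits and the promoters shown, were chosen after their values were seen. Some called genes are counted but not reported by name here.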

Additional observations from a re-analysis of the deposited data

Results flagged for a closer look

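In 17 genes the effect of the deletion in the presence of Hoxb13hd (double mutant over Hoxb13hd alone) differed from its effect without it (Del(i9-13) alone over wild type) by edgeR's interaction term at a Benjamini-Hochberg adjusted p under 0.05. They were found among the genes named in the report or called against wild type, and called genes not reported by name here were left out of this count. The difference was -12.12 on the log2 scale for Eif3j2, -2.55 for Pop4, -2.50 for H4f16, -1.33 for Bcl2l12 and 4.68 for Hfm1. It was -7.24 for Rps15a-ps6, -9.44 for Rps15a-ps8, -5.17 for Rps15a-ps5, -1.47 for Gm7666, -1.28 for Mrpl27-ps and 5.05 for Gm4815. It was 0.74 for Banp, 0.76 for Clmp, -0.62 for Endov, 0.64 for St6gal2 and -0.65 for Slc9a3r1. It was -0.67 for Mir17hg, which was low in the double mutant alone. For Rps15a-ps5, Rps15a-ps6, Rps15a-ps8, Gm7666, Mrpl27-ps, Endov and Slc9a3r1, wild type had the lowest mean. In these genes the double mutant did not differ past the threshold from either single mutant. Gm7666, for example, had 12.1 CPM in the double mutant, 14.5 with Del(i9-13) alone, 14.8 with Hoxb13hd alone and 6.35 in wild type. Groups of 3 libraries are too small for a test of single outlying libraries.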

How the results depend on the processing

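The 69 calls against wild type became 326 with DESeq2, 24 and 30 with limma on log2(FPKM + 0.1) and log2(FPKM + 1), 21 with limma and no filter, 117 with only the groups compared, 28 with the Xist covariate and 27 at an absolute log2 of at least 1, and 14 to 41 with a library left out. With the replicate block they were 61 over 12 libraries and 614 over the 6 compared. The 156 calls against Del(i9-13) became 673 with DESeq2, 76 with only the groups compared, 51 at the log2 minimum and 58 to 1453 with a library left out. The 165 calls against Hoxb13hd became 329 with no low-count filter, 658 with DESeq2, 45 with limma and no filter, 317 with only the groups compared, 70.0 at the log2 minimum and 36 to 412 with a library left out. The 90 interaction calls became 297 with DESeq2, 47 with limma and no filter and 40 to 174 with a library left out. List members called, 9, became 26 with DESeq2, 5 and 4 with limma on log2(FPKM + 0.1) with and without a filter, 15 with only the groups compared, 4 with the Xist covariate, 4 at the log2 minimum, 47 with the replicate block in the groups compared and 1 to 4 with a library left out. The chromosome 7 share of 23.2% was 12.7% with that block and 5.0% to 19.5% with a library left out, and the chromosome 11 share of 18.8% was 10.7% with that block, 12% with DESeq2 and 24.4% to 38.9% with a library left out.
Hoxb13 had a log2 change of 4.69 with only the groups compared, 4.60 with the Xist covariate and 4.78 with the replicate block there, each short of significance at 0.05 (adjusted p = 0.0666, 0.0524 and 0.118), and 4.16 to 6.95 with a library left out. With limma on unfiltered FPKM, Gm4815 reversed to -0.24 against wild type, -0.35 against Del(i9-13), -0.34 against Hoxb13hd and -0.45 in the interaction, and the Rps15a-ps5 interaction to 1.06. The causes were not tested. Of the other values for single genes, 2968 kept their side of the threshold, 797 lost the call and 43 gained it. A change of sign without a call in either fit was counted as kept.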

Other observations

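Hba-a2, an alpha globin gene with a near-identical paralog, had 56.0, 0.546 and 78.9 CPM in the double mutant and 0.136, 0.254 and 0.0842 CPM in wild type, and was not called (log2 8.10, adjusted p = 0.125).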
